A study of Mus musculus with 158 samples.

Results

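The genes of MHC class II presentation were represented in these data by H2-Aa, H2-Ab1, H2-Eb1, H2-DMa, H2-Oa, Cd74 and Ciita, 7 of 21728 protein-coding genes annotated on the autosomes and chromosome X. They were chosen by name, with earlier results of these data known. The p-values below therefore do not belong to a list fixed before the data were seen. Each was described by the DNase-seq hotspots over its gene body and 10 kb on either side, in each tissue and hybrid.

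The study mapped DNA accessibility in F1 hybrid mice by DNase-seq, in which DNase I cuts open chromatin, and called hotspots, the stretches where cuts are enriched. All mice had a C57BL/6J mother. Each hybrid is labelled by its father's strain. The fathers of B6x129 and B6xC3H were of laboratory strains, those of B6xPWK and B6xCAST of wild-derived strains of other subspecies, and that of B6xSPRET of a wild-derived strain of another mouse species. The mice carried no transgene or treatment. Liver, kidney and lung were whole organs of mice killed at 8 weeks, usually pooled over several animals, so that each holds many cell types. B cells came from femoral marrow of females of the same age, after cells with CD43 or Mac-1/CD11b had been depleted. The B6xCAST mouse embryonic stem cells (mESCs) were a cultured hybrid line. The replicates of each of the 20 combinations of hybrid and tissue were pooled before hotspots were called, so 1 set per combination was available, and n counts sets. There were 5 sets per tissue, with 1 further set of mESC hotspots and 1 of CTCF ChIP-seq in mESCs.

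MHC class II molecules are pairs of an alpha and a beta chain that show peptides from outside the cell to helper T cells, and B cells, dendritic cells and macrophages are their main producers. The invariant chain Cd74 guides newly made class II molecules to the endosome, where the H2-DM pair loads the peptide and the H2-O pair holds H2-DM back. Ciita is the coactivator that turns on all of these genes by binding the factors assembled on their X and Y boxes, and its own promoters differ between cell types.

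The promoters printed here show where matches to short cores of those boxes lie in genes whose accessibility is described afterwards. RefSeq promoters of build GRCm38.p6 (mm10) were searched on both strands for the X box core ACNGATG and the Y box core GATTGG, which have no letters in common where they occur. Of 32851 promoters spanning 250 bases before to 50 after a start, 9.85% held the X core, 16.1% the Y core, and 0.0913% both on 1 strand with the Y core starting 15 to 45 bases after the X core. The promoters of 4 of the 7 genes were in that collection, and H2-Ab1, Cd74 and Ciita were not. Each line gives the 150 bases before the start in the direction of the gene, with the cores in capitals and CCAATC marking a Y core on the other strand. H2-Aa lies at chr17:34287824-34287973 on the reverse strand, H2-Eb1 at chr17:34305717-34305866 on the forward strand and H2-Oa at chr17:34092229-34092378 on the forward strand.
H2-Aa: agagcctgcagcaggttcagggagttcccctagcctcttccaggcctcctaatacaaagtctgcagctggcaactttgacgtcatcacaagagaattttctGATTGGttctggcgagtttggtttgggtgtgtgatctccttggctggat
H2-Eb1: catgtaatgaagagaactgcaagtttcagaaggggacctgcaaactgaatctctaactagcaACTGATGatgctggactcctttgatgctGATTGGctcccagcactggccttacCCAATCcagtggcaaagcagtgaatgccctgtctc
H2-Oa: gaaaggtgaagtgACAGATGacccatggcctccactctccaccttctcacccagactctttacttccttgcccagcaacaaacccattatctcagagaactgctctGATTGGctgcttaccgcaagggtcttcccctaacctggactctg

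In H2-Eb1 the Y core began 28 bases after the X core, which places it among the 30 promoters, of 28 genes, with the pair. In H2-Oa the cores began 137 and 44 bases before the start and were too far apart to count as a pair. H2-Aa held the Y core 49 bases before the start. Its only match to the X core lay on the other strand 232 bases before the start, outside the stretch printed. Of the starts listed for H2-DMa, 1 held neither core and 1 held a Y core. A match describes letters, and is neither a bound site nor necessarily the box of that gene. The absence of these letters says nothing about the box or about binding by the factors.

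Neighbouring class II genes that hold both cores as a pair were printed for comparison, since they differ in where the cores were accessible. They lie on the forward strand, H2-Eb2 at chr17:34325525-34325674, H2-DMb1 at chr17:34153041-34153190 and H2-DMb2 at chr17:34145099-34145248.
H2-Eb2: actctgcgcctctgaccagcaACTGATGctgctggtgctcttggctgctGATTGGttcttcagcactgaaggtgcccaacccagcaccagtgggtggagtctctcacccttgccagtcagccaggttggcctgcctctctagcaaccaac
H2-DMb1: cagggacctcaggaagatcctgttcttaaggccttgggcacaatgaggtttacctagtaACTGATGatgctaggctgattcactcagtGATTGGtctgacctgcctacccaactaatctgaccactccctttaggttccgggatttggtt
H2-DMb2: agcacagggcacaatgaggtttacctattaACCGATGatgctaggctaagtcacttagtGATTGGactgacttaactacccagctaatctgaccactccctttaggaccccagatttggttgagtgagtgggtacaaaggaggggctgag

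The spacing from X to Y core was 28 bases in H2-Eb2 and 29 bases in both H2-DMb1 and H2-DMb2. H2-Ob, the beta chain gene of H2-O, held a Y core and no X core and is not printed. Its Y core lay inside a hotspot in 20 of 20 adult sets. So did the printed cores of H2-Aa (the Y core alone), H2-Eb1 and H2-DMb1. Those of H2-Oa lay inside a hotspot in 5 B cell sets, 1 lung set and no liver or kidney set. Those of H2-Eb2 were covered in 5 B cell, 5 lung and 2 liver sets and in 0 kidney sets, and those of H2-DMb2 in 5 B cell, 5 lung, 3 kidney and 2 liver sets. The same spacing of cores thus stood beside accessibility in all tissues in some promoters and in fewer tissues in others.

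The sets differed in size, which bears on every count of hotspots. Adult sets held 78387 hotspots (B6xC3H B cell) to 295565 (B6x129 liver), and the B cell sets covered 28.95 to 68.73 Mb, against 43.76 to 128.8 Mb in the other tissues. Read depth per set was not used here, and 1 value per set has no error of its own. A hotspot lay within 500 bp of the start of 6 of 6 B cell markers in every B cell set, and of 0 of 3 hepatocyte, 0 of 3 kidney tubule and 0 of 3 lung epithelium markers. Of the 7 myeloid and dendritic markers, 3 to 6 had one in the B cell sets and 6 in every lung set, with Csf1r at 0 in the 20 adult sets.

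In B cells, hotspots covered more of 6 of the 7 loci than in the other tissues, and H2-DMa, which was called in 3 of 12 alternatives, was the exception (exact permutation test over sets, two-sided, Benjamini-Hochberg adjusted over 21331 genes). Over all genes tested, 5.04% were called higher in B cells and 23.2% lower. Of all calls 17.8% were higher, against 68.3% when bp were taken per Mb of the set and 58.9% with the 75000 highest-scoring hotspots of each set. The median gene had 0.724 times the covered bp in B cells, and the median of the 7 genes was 3.10 times, with a range of 1.21 to 4.09 (100 bp added to both means). For H2-Aa, H2-Ab1, H2-Eb1, H2-Oa and Cd74 every B cell set was above every other set, which held for 0.586% of all genes. In bulk tissue, fewer cells of a type and less accessibility per cell cannot be told apart.

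**Figure D1:**
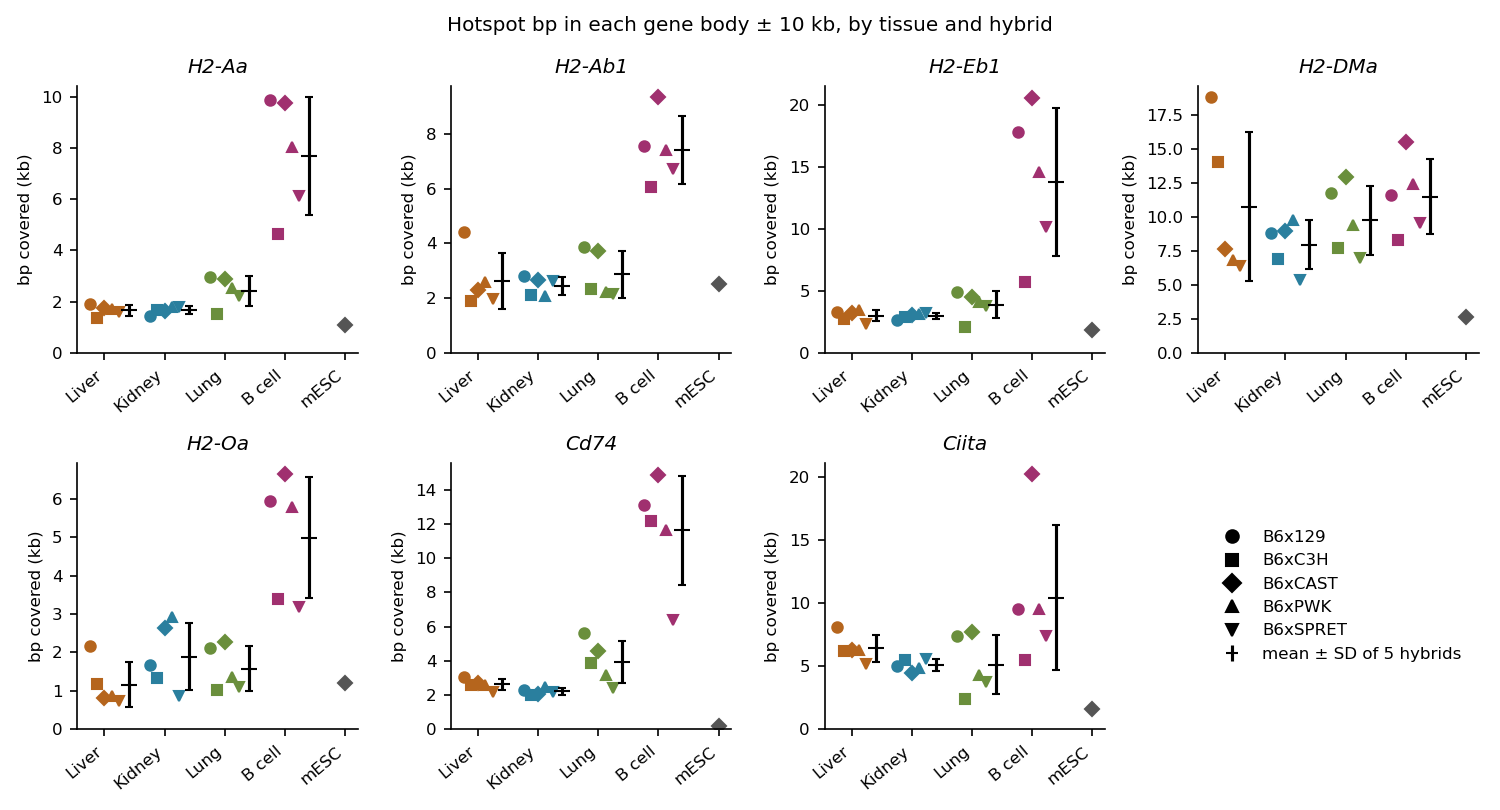
Base pairs covered by hotspots (kb, linear axes from 0) in the gene body and 10 kb on either side, 1 panel per gene, with 1 point per hybrid and the mean ± SD of the 5 hybrids in each adult tissue and 1 point for B6xCAST mESCs. In 5 panels every B cell point lies above every other adult point, while H2-DMa has its highest point, 18860 bp, in B6x129 liver.

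The classical chains were described first. H2-Aa (ENSMUSG00000036594, chr17:34282744-34287823, reverse strand) encodes the alpha chain of the I-A molecule. In B cells its window held 9872 bp of hotspots in B6x129, 4642 bp in B6xC3H, 9754 bp in B6xCAST, 8028 bp in B6xPWK and 6116 bp in B6xSPRET. In the other sets it held 1352 to 1911 bp in liver, 1417 to 1799 bp in kidney and 1502 to 2950 bp in lung, so that B cells did not overlap any of them. The means were 7682 ± 2286 bp (SD, n = 5) against 1909 ± 503 bp (SD, n = 15), a ratio of 4.02 (exact permutation p = 6.45e-05, the smallest that 15504 arrangements can give, adjusted p = 0.0013).

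H2-Ab1 (ENSMUSG00000073421, chr17:34257689-34269419, forward strand) encodes the beta chain of I-A. Its B cell sets held 7551, 6070, 9362, 7425 and 6707 bp in the order B6x129, B6xC3H, B6xCAST, B6xPWK and B6xSPRET. The remaining sets held 1904 to 4409 bp, with the top value in B6x129 liver, and all lay below the lowest B cell set. The means were 7423 ± 1237 bp (SD, n = 5) against 2648 ± 761 bp (SD, n = 15), a ratio of 2.80 (exact permutation p = 6.45e-05, the smallest possible, adjusted p = 0.0013).

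H2-Eb1 (ENSMUSG00000060586, chr17:34305867-34316674, forward strand) encodes the beta chain of I-E. In the same order of hybrids its B cell sets held 17845, 5697, 20597, 14563 and 10141 bp. The other sets reached 4890 bp at most, in B6x129 lung, which was close to the B6xC3H B cell value and far below the other B cell values. The means were 13769 ± 5962 bp (SD, n = 5) against 3289 ± 773 bp (SD, n = 15), a ratio of 4.19 (exact permutation p = 6.45e-05, the smallest possible, adjusted p = 0.0013).

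The windows of H2-Ab1, H2-Aa and H2-Eb1 adjoin and together span 78986 bp. Those of H2-Aa and H2-Eb1 share 1957 bp, of which hotspots covered 797 to 1957 bp in B cells and 381 to 934 bp elsewhere, and those of H2-Aa and H2-Ab1 share 6676 bp, of which at most 111 bp was covered in any set. A region of 17343 bp (chr17:34293148-34310490), formed by merging overlapping hotspots of the 20 sets, begins upstream of H2-Aa and ends inside H2-Eb1, past its start, and each gene's covered bp counts only the part inside its own window. Across the 20 sets the covered bp of H2-Aa and H2-Eb1 had a Pearson r of 0.985, a description over sets that share their size and these bases.

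**Figure D2:**
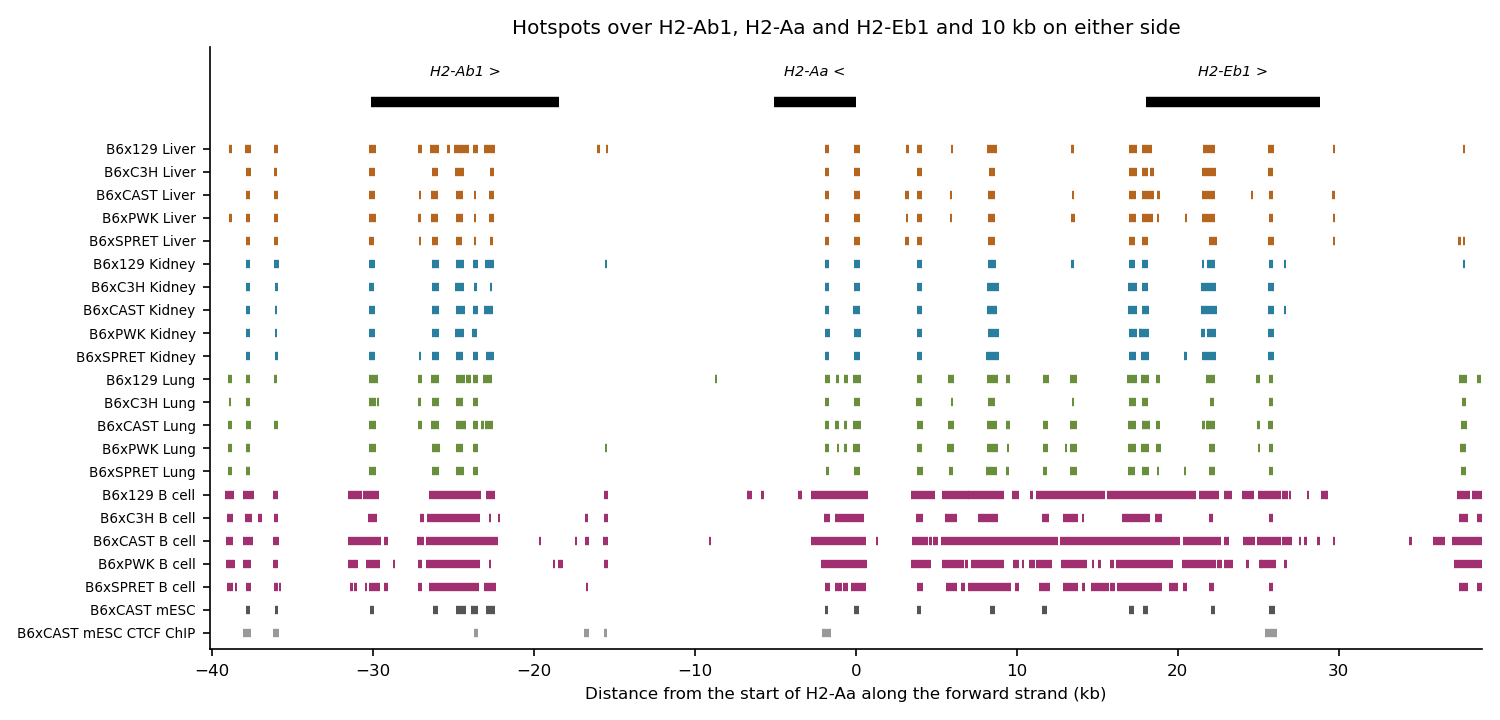
Hotspots of each adult set, of mESCs and of CTCF ChIP-seq in mESCs (1 row each) along H2-Ab1, H2-Aa and H2-Eb1, against distance from the start of H2-Aa (kb), with gene bodies as black bars and an arrow for the strand. B cell rows show long unbroken hotspots where the liver, kidney and lung rows show short separate ones, the longest being 7210 bp, and the B6xC3H B cell row is the sparsest of the 5.

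The peptide-loading genes did not move together. H2-DMa (ENSMUSG00000037649, chr17:34119541-34139101, forward strand), the alpha chain of H2-DM, held 11664, 8334, 15550, 12428 and 9584 bp in the B cell sets in the order B6x129, B6xC3H, B6xCAST, B6xPWK and B6xSPRET. Liver held 18860 bp in B6x129 and 14079 bp in B6xC3H but 6402 to 7663 bp in the other hybrids, kidney 5338 to 9812 bp, and lung 7013 to 12982 bp. The groups overlapped throughout, with means of 11512 ± 2783 bp (SD, n = 5) against 9502 ± 3587 bp (SD, n = 15), and the exact permutation p of 0.272 (adjusted p = 0.393) did not pass the threshold. H2-DMa shares its window with other promoters. The annotated 5′ end lies 3291 bp before its protein-coding start, Brd2, a chromatin reader transcribed from the opposite strand, starts 3093 bp after that 5′ end, and H2-DMb2 starts 23766 bp after it. A hotspot lay within 500 bp of each of these starts in 20 of 20 adult sets. H2-DMa was called higher in B cells relative to the Mb covered by each set (adjusted p = 0.000335 by the exact permutation test), as were 7709 of all genes on that scale, with the 75000 highest-scoring hotspots (0.00958) and with 50 kb on either side (0.0343).

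H2-Oa (ENSMUSG00000024334, chr17:34092340-34095234, forward strand), the alpha chain of H2-O, held 5929, 3400, 6639, 5788 and 3191 bp in the B cell sets in the same order. The other sets held 746 to 2918 bp, and the top value there, in B6xPWK kidney, was only a little under the lowest B cell set. The means were 4989 ± 1581 bp (SD, n = 5) against 1540 ± 711 bp (SD, n = 15), a ratio of 3.24 (exact permutation p = 6.45e-05, the smallest possible, adjusted p = 0.0013). With 50 kb instead of 10 kb on either side the call was lost (adjusted p = 0.0566).

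Cd74 (ENSMUSG00000024610, chr18:60803848-60812652, forward strand), the invariant chain, held 13112, 12153, 14847, 11611 and 6396 bp in the B cell sets. Lung held 5602, 3843, 4562, 3147 and 2438 bp in the same order of hybrids, liver 2200 to 3044 bp and kidney 2023 to 2459 bp. B cells were thus above all other sets, and 4 of the 5 lung sets were above every liver and kidney set. The means of B cells and of the other sets were 11624 ± 3171 bp (SD, n = 5) and 2916 ± 1018 bp (SD, n = 15), a ratio of 3.99 (exact permutation p = 6.45e-05, the smallest possible, adjusted p = 0.0013).

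Ciita (ENSMUSG00000022504, chr16:10480059-10528418, forward strand), the coactivator, held 9559, 5525, 20194, 9496 and 7385 bp in the B cell sets. Liver held 5169 to 8136 bp, kidney 4489 to 5593 bp and lung 2398 to 7712 bp, so the groups overlapped and in B6xC3H liver (6191 bp) was above B cells. The means were 10432 ± 5707 bp (SD, n = 5) against 5539 ± 1543 bp (SD, n = 15), a ratio of 1.88 (exact permutation p = 0.00258, adjusted p = 0.0162). The call did not pass without B6xCAST (adjusted p = 0.0716), without B6xPWK (adjusted p = 0.0777) or with 50 kb on either side (adjusted p = 0.835). The regions of the window past the end of Ciita lay in Dexi, a gene on the opposite strand. Those beginning 51755, 52820 and 56164 bp after the 5′ end of Ciita were open in 5 of 5 liver sets each. In B cells they were open in 1, 2 and 5 sets, in lung in 3, 2 and 1, and in kidney in 0, 2 and 0. The part of the covered bp that lay in Dexi was not counted.

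Within hybrids, B cells had the most covered bp of the 4 tissues in 5 of 5 hybrids for H2-Aa, H2-Ab1, H2-Eb1, H2-Oa and Cd74, in 4 for Ciita and in 3 for H2-DMa. Against the mean of the other 3 tissues of the same hybrid, the ratio ran from 3.09 to 4.72 for H2-Aa, 2.05 to 3.24 for H2-Ab1, 2.21 to 5.73 for H2-Eb1, 2.88 to 3.53 for H2-Oa, 2.83 to 4.78 for Cd74, 1.18 to 3.27 for Ciita and 0.872 to 1.57 for H2-DMa. Among the B cell sets, B6xCAST was highest for 6 of the genes and B6x129 for H2-Aa, and the lowest was B6xC3H for 5 genes and B6xSPRET for H2-Oa and Cd74. B6xCAST was also the largest B cell set and B6xC3H the smallest, and the covered bp of each gene and the Mb of the set had a Pearson r of 0.647 (Cd74) to 0.978 (H2-DMa) over 5 sets, given as a description. The part of set size in the order of hybrids was not tested.

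The hybrids with wild-derived fathers (B6xCAST, B6xPWK and B6xSPRET, 12 sets) were compared with those with laboratory fathers (B6x129 and B6xC3H, 8 sets), with labels permuted within each tissue. This asks whether the more diverged parent went with more or less accessibility at these loci. Per the study's methods, the B6x129 and B6xC3H hybrids were bought as females, while the others were bred at the authors' centre. The father's strain and the source of the mice therefore cannot be told apart. Of the 7 genes 0 were called, as were 0% of 21331 genes in either direction, and at an unadjusted p under 0.05 there were 453 genes (2.12%). With 10000 arrangements and 21331 genes, any call needs many genes at the smallest p. The 0 calls therefore do not show that the hybrids were alike. The permutation p of the 7 genes (10000 arrangements, two-sided) ran from 0.306 (H2-DMa, 9333 ± 3028 bp against 11012 ± 3998 bp, SD, n = 12 and n = 8) to 0.894 (H2-Ab1), and no other tool was run on this comparison.

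The number of hotspots moved less than the bp they covered. Hotspots were more numerous in B cells for H2-Ab1, H2-Eb1 and H2-Oa, 3 of the 7 genes, where 1.73% of all genes were called higher and 37.8% lower. Higher calls were 4.37% of all calls, against 68.1% per 100000 hotspots of the set. H2-Oa had 11, 10, 12, 16 and 9 hotspots in the B cell sets in the order B6x129, B6xC3H, B6xCAST, B6xPWK and B6xSPRET, against 2 to 9 elsewhere. Its means were 11.6 ± 2.70 (SD, n = 5) and 4.87 ± 2.33 (SD, n = 15; exact permutation test, adjusted p = 0.00144). The means were 17 ± 4.18 against 8.8 ± 2.51 for H2-Eb1 (exact permutation test, adjusted p = 0.00267) and 12.4 ± 2.88 against 8.27 ± 1.94 for H2-Ab1 (adjusted p = 0.0141). The call for H2-Ab1 was lost without B6xCAST, B6xPWK or B6xSPRET (adjusted p of 0.0542, 0.0725 and 0.0805 by the exact permutation test), and its direction turned when the gene body alone was counted. That for H2-Oa was lost with 50 kb on either side (adjusted p = 0.16). H2-DMa had fewer hotspots in B cells, 14 ± 2.24 against 17.2 ± 5.28, which did not pass (exact permutation test, adjusted p = 0.338), and the direction turned per 100000 hotspots of the set, where it was called higher (adjusted p = 0.00921).

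For Cd74 the number did not pass, at 10 ± 3.74 hotspots in B cells and 8.47 ± 2.17 elsewhere (exact permutation test, adjusted p = 0.436), and the hotspots were wider instead. The widest hotspot in its window measured 4100 bp at the lowest, 5603 bp at the median and 12507 bp at the highest in B cells, against 397 to 1335 bp in the other sets. The hotspot over its start covered 11591 bp in B6x129, 5356 bp in B6xC3H, 12507 bp in B6xCAST, 5603 bp in B6xPWK and 4100 bp in B6xSPRET. In each B cell set it was wider than 99.76% to 99.98% of the hotspots over the starts of genes with one. The share was 31.7% to 67.5% in lung, 18.3% to 21.8% in liver and 10.5% to 23.3% in kidney. Merged over the sets, this region ran for 12530 bp from position -1469 relative to the start, across the whole gene and into Tcof1.

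**Figure D3:**
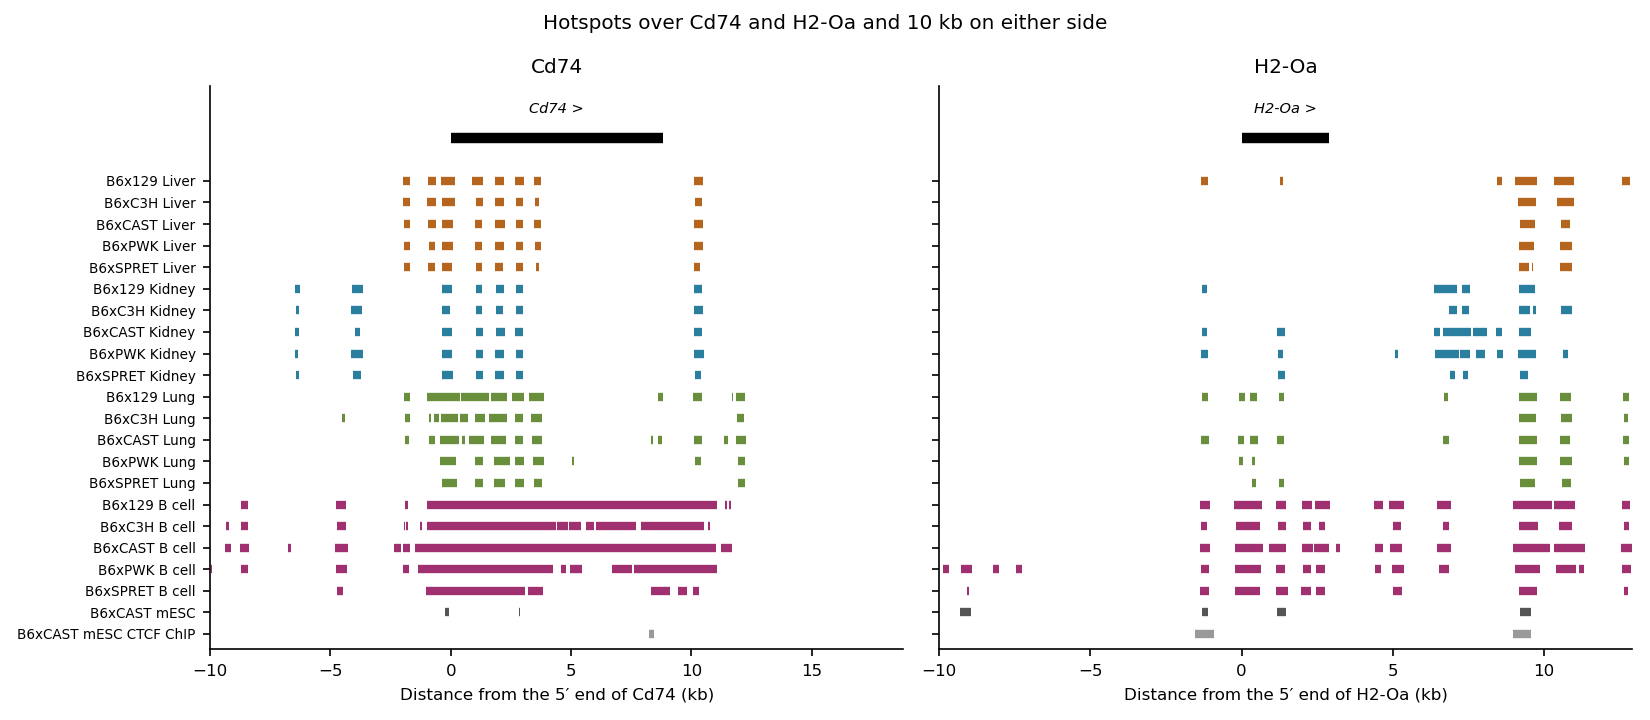
Hotspots of each set (1 row each) along Cd74 on the left and H2-Oa on the right, against distance from the annotated 5′ end (kb), with gene bodies as black bars. In B cells Cd74 lies under hotspots of up to 12507 bp, and H2-Oa has a hotspot within 500 bp of its start in 5 B cell rows, in 4 lung rows and in no liver or kidney row.

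Width set the class II chains apart as well. In B cells the widest hotspot had a median of 2896 bp for H2-Aa (1781 to 7210 bp), 3274 bp for H2-Ab1 (2435 to 4480 bp) and 3270 bp for H2-Eb1 (1259 to 7210 bp). In the other sets it reached 707, 908 and 946 bp at most, so the groups did not overlap for these genes, as for Cd74. Of all genes, 1.13% had a wider widest hotspot in every B cell set than in every other set. For H2-Oa (767 to 1293 bp against 287 to 956 bp), Ciita (899 to 3600 bp against 411 to 1623 bp) and H2-DMa (1249 to 6796 bp against 1154 to 7873 bp) they did. The 7210 bp of H2-Aa and of H2-Eb1 came from 1 hotspot of B6xCAST B cells, which runs past the window of H2-Aa. In B6x129 lung the 2 genes likewise shared their widest hotspot, of 707 bp. All these widths were described after the values had been seen and carry no test.

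At the starts, H2-Aa, H2-Ab1, H2-Eb1, H2-DMa and Cd74 had a hotspot within 500 bp in all 20 adult sets, as did 46.4% of all genes, so presence did not separate the tissues. None of the 7 genes was called higher in B cells by presence at the start (0 of 7), and 0.321% of 17145 genes were called higher and 5.41% lower. H2-Oa was the gene with the largest difference, with a hotspot in 5 of 5 B cell sets, 4 of 5 lung sets and 0 of 10 liver and kidney sets (exact permutation p = 0.00813, the 1 unadjusted p under 0.05 among the 7, adjusted p = 0.0965). It passed at a hotspot FDR of 1% (adjusted p = 0.0237) and with the 75000 highest-scoring hotspots of each set (adjusted p = 0.00241).

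Ciita has starts in 3 clusters, and the tissues differed by cluster. At the annotated 5′ end a hotspot lay within 500 bp in 3 liver sets, 1 lung set, 1 B cell set and no kidney set. At the starts 8119 and 8220 bp downstream, one lay within 500 bp in 5 B cell, 5 lung and 2 liver sets and in no kidney set. The base 8119 bp downstream itself was covered in 5 B cell and 4 lung sets and in no liver or kidney set. At the protein-coding start 8220 bp downstream, the base was covered in 5 B cell sets, 1 lung set and no liver or kidney set. At the starts 9687 to 9724 bp downstream a hotspot was present in all 20 adult sets and in mESCs. Presence at the annotated 5′ end missed the starts at which B cells and lung were accessible.

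**Figure D4:**
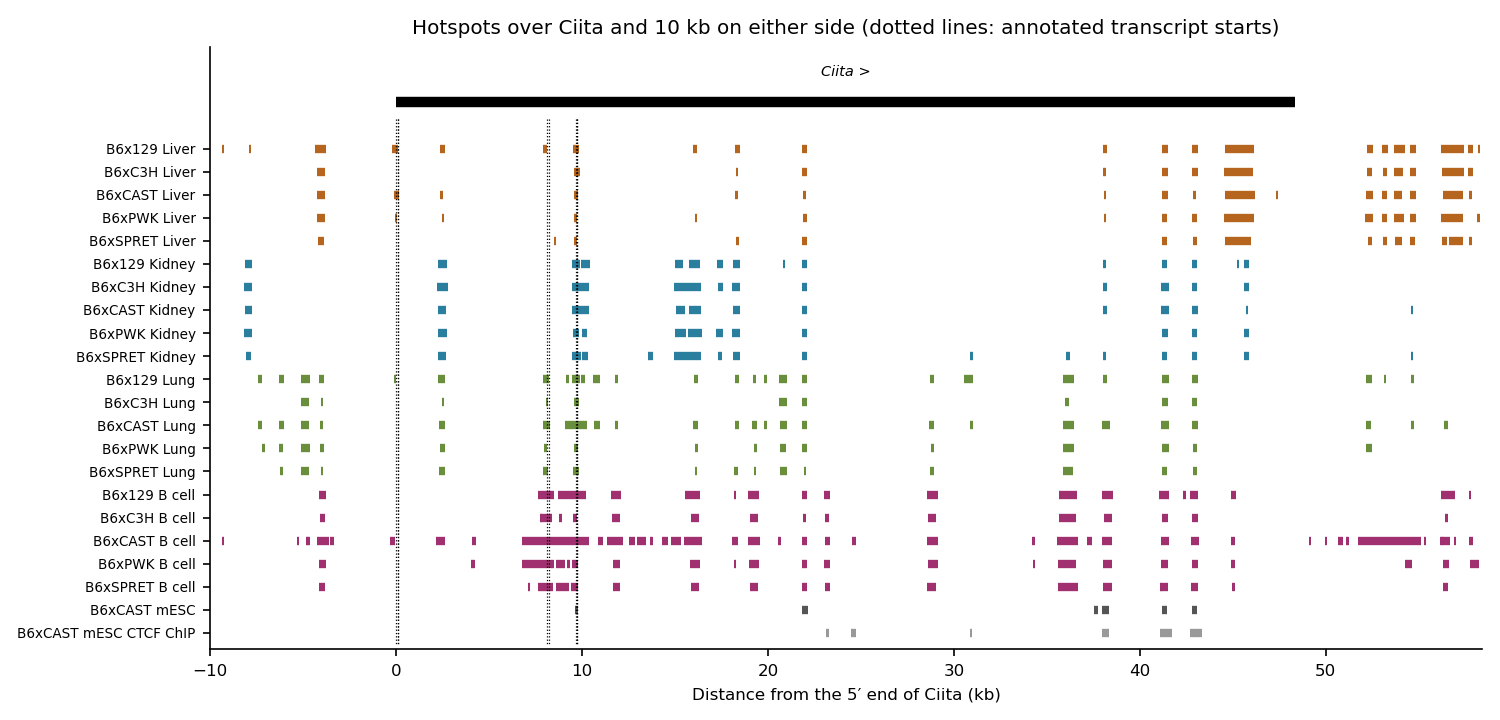
Hotspots of each set (1 row each) along Ciita, against distance from the annotated 5′ end (kb), with the gene body as a black bar and annotated transcript starts as dotted lines. The starts 8119 and 8220 bp downstream are met by hotspots in every B cell row, and the hotspot 23017 to 23350 bp downstream appears in the B cell rows and in the CTCF row alone.

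Further into Ciita, 4 of the 52 regions of its window (7.69%) had a hotspot in 5 of 5 B cell sets and in no liver or kidney set, against 0.818% over the genome. Those beginning 11366, 18914 and 28537 bp after the 5′ end were also open in 2, 4 and 4 lung sets. The fourth, of 334 bp at chr16:10503076-10503409, lies in an intron of Ciita and an exon of Dexi, a gene on the opposite strand, and was open in 0 of 15 other sets. It overlapped a CTCF hotspot of mESCs but no DNase-seq hotspot there. A region of 1113 bp beginning 35566 bp after the 5′ end was open in 5 B cell, 5 lung and 1 kidney sets.

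Regions open in all B cell sets and in no other adult set numbered 3 of 153 merged regions in the windows, against 0.334% of 745754 regions over the genome. Beside the one in Ciita, both lay in H2-Oa, of 398 bp and 529 bp, beginning 1976 and 2378 bp after its start. Because a merged region takes in hotspots of every set, the wide B cell hotspots over Cd74 and the I-A and I-E genes could not appear in this count. Counted by single bases, a measure chosen after the data had been seen, 7223 of 119784 bp open in any adult set (6.03%) were covered in all B cell sets and in no other, against 0.722% over the genome. The share was 11.7% for H2-Aa, 9.61% for H2-Oa, 8.67% for H2-Ab1, 8.35% for Cd74, 5.45% for Ciita, 5.4% for H2-Eb1 and 0.335% for H2-DMa.

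At the other end, 17 of the 153 regions were open in all 20 adult sets, where 3.77% of regions over the genome were. A CTCF hotspot of mESCs overlapped 10 of these 17 regions (58.8%), against 67.2% of such regions over the genome, and 15 of the 17 had an mESC hotspot. Another 57 regions (37.2%) were open in a single set, against 42.2% over the genome. CTCF, which anchors chromatin loops, had 10 hotspots in the window of H2-DMa, 6 in that of Ciita, 5 in that of H2-Ab1 and 1 or 2 in the others.

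Lung was compared with liver and kidney alone, to order the organs without B cells. Cd74 and H2-Aa, 2 of the 7 genes, were covered by more hotspot bp in lung, where 3.76% of all genes were called higher and 13.1% lower. Higher calls were 22.3% of all calls, against 61.7% per Mb of the set. For Cd74 the means were 3918 ± 1229 bp (SD, n = 5) and 2414 ± 320 bp (SD, n = 10; exact permutation p = 0.003, adjusted p = 0.0278). For H2-Aa they were 2412 ± 588 bp (SD, n = 5) and 1658 ± 173 bp (SD, n = 10; exact permutation p = 0.00366, adjusted p = 0.0311). Both calls rested on the full set of hybrids: Cd74 was lost without B6x129, B6xC3H, B6xCAST or B6xPWK (adjusted p of 0.0645, 0.103, 0.0804 and 0.0961), and H2-Aa without B6x129, B6xCAST, B6xPWK or B6xSPRET (adjusted p of 0.0813, 0.0905, 0.128 and 0.087). Of the 7 myeloid and dendritic markers 6, and of the 6 B cell markers 3 to 6, had a start hotspot in lung, against 4 to 6 and 1 to 5 in liver and 1 to 4 and 1 to 3 in kidney, and their part in these calls was not tested. With 50 kb on either side neither gene was called. H2-Aa was also lost with labels permuted within hybrids (adjusted p = 0.0638 by the exact permutation test), with the 75000 highest-scoring hotspots (0.13), in the gene body alone (0.0854) and with 2 kb (0.0868), so that it passed in 3 of 12 alternatives. For H2-Eb1 the lung mean was 890 bp above the other (adjusted p = 0.104 by the exact permutation test), it passed without B6xC3H (0.0425) and per Mb of the set (0.00686), and the direction turned in the gene body alone and with 2 kb.

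In mESCs, with no test since there was 1 set, Cd74 had 205 bp in 3 hotspots, the one at its start being 80 bp wide, and 17.9% of genes had fewer bp. H2-Aa had 1098 bp, H2-Oa 1207 bp, Ciita 1621 bp, H2-Eb1 1875 bp, H2-Ab1 2511 bp and H2-DMa 2612 bp, and the share of genes with fewer bp ran from 35.4% (H2-Aa) to 72.6% (H2-DMa) for these 6. All were below the lowest B cell set of the same gene. A hotspot lay at the start of 5 of the 7 genes, H2-Oa and Ciita having none at the annotated 5′ end.

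The remaining genes of the pathway were counted by list on covered bp in B cells against the other tissues, where 5.04% of all genes were called higher. Of the other class II genes 4 of 6 listed were measured, and 4 of 4 were called higher: H2-Eb2 with 7677 ± 3387 bp against tissue means of 1333 to 2204 bp, H2-Ob with 9708 ± 1611 bp against 3265 to 4459 bp (both adjusted p = 0.0013), H2-DMb1 (adjusted p = 0.00208) and H2-DMb2 (adjusted p = 0.00642, all by the exact permutation test). The windows of these genes overlap those described above. H2-Eb2 starts 19798 bp after H2-Eb1 and H2-DMb2 starts 23766 bp after H2-DMa, both inside the earlier gene's window. Exons of H2-Ob lie inside the window of H2-Ab1, and the promoter of H2-DMb1 lies within 10 kb of the window of H2-DMa. The 4 calls thus partly reuse hotspots already counted and are not independent of the earlier ones. H2-DMb2, the beta chain partner gene beside H2-DMa, was called where H2-DMa was not. The difference between the pair was not tested. H2-Eb2 was also called higher in lung than in liver and kidney (adjusted p = 0.00874).

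Of the factors that bind the X and Y boxes, Rfx5 alone was called higher, 1 of 7 (4065 ± 1058 bp against tissue means of 1903 to 2536 bp, adjusted p = 0.00208 by the exact permutation test). Of the known regulators of Ciita, 3 of 7 were called higher, namely Irf4 (7946 ± 3881 bp, adjusted p = 0.0013), Pax5 (24922 ± 9622 bp, adjusted p = 0.0013) and Irf8 (12945 ± 8963 bp, adjusted p = 0.0128). Pax5 keeps B cells in their lineage, and was also on the B cell marker list. For peptide handling, 2 of 3 listed genes were measured, and Ctss, the protease that trims the invariant chain, was higher (4623 ± 1134 bp, adjusted p = 0.00271) while Lgmn, another endosomal protease, was lower (2914 ± 953 bp, adjusted p = 0.0439). Of the class I and antigen processing genes, which present peptides from inside the cell, 0 of 8 were called, with adjusted p of 0.0854 (H2-K1) to 0.953 (B2m) by the same exact permutation test. At an unadjusted p under 0.05 there were 2 of the 8, and no other tool was run. Over all genes 5.04% were called higher and 23.2% lower. In lists this short, 1 of 7 factors or 0 of 8 class I genes cannot be told from that share.

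The genes most alike to the 7 in covered bp over the 20 sets, among 16400 genes compared, were Pifo, Tnfrsf13c, Irf4, Ikzf3 and Chrna9, with a Pearson r of 0.976 to 0.98 to the mean of the standardized values. Tnfrsf13c, the receptor for the survival factor BAFF, held 7801 bp in B cells and 177 to 1265 bp in the other tissues. Among the 7, r to their own mean was 0.612 for H2-DMa, 0.876 for Ciita and 0.926 to 0.965 for the others. The genes most alike to Ciita alone were Rnf219, Wee2, Rac2, Tmed3 and Hfm1, with r of 0.939 to 0.954. These values share the size of each set over all genes and are descriptions over 20 sets.

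RNA-seq, a readout that the hotspot measures did not use, was available for 5 B cell samples and 4 samples each of liver, kidney and lung. The expected counts in the deposited tables summed to 283725 to 809337 per sample. The study's sample list gives far more reads per library, so these totals are not its sequencing depth, and the values rest on few counts whatever the depth was. Nothing in the descriptions says that samples of a group came from separate animals, so the p-values measure the spread between samples. Tsix, transcribed antisense to Xist, exceeded Xist in 17 of 17 samples, although the libraries were prepared to keep strand. The counts are therefore given as the tables hold them, with the strand they stand for unsettled. The sample labelled B6xCAST B cell 1 is listed under B6xC3H in the study's own sample list, and its tissue is the same in both. That list also puts downloaded runs under B6xC3H that the study's methods name as B6xCAST. Of the 7 genes, 3 passed the filter on low counts, and H2-Ab1, Cd74 and Ciita were all called higher in B cells (edgeR quasi-likelihood test), where 32.8% of 4479 genes were called higher and 30.1% lower. The filter can let a gene pass through the group in which it is high, so this count is given without weight.

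**Figure D5:**
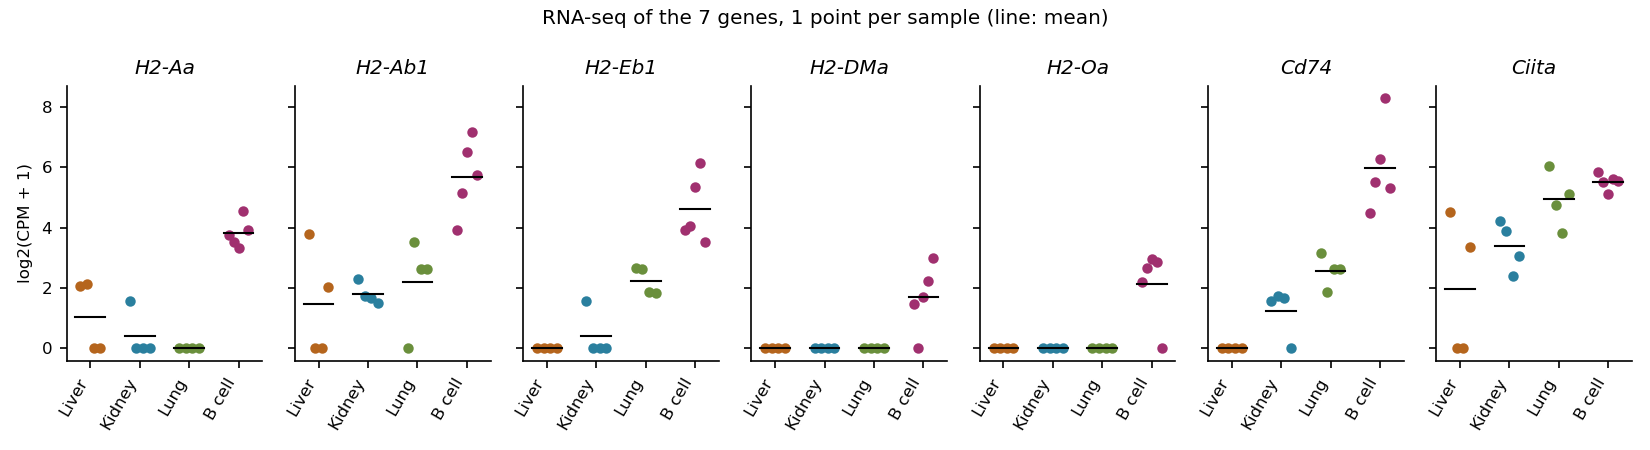
RNA-seq counts listed under the 7 genes as log2(CPM + 1), with 1 point per sample and a line at the mean. There were 4 liver, 4 kidney, 4 lung and 5 B cell samples, and the strand the counts stand for is unsettled. The B cell points of H2-Aa, H2-Ab1, H2-Eb1 and Cd74 lie above all others, those of H2-DMa and H2-Oa rest on 7 and 12 counts in all, and those of Ciita overlap lung.

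Cd74 had 12, 17, 34, 252 and 11 counts in the B cell samples B6xCAST 1, B6xPWK 1, B6xPWK 2, B6xC3H 1 and B6xSPRET 1, and 0 to 3 counts in every other sample. The B6xC3H sample was far above the others, at 311 CPM, counts scaled to a common library total, against 21.2 to 75.9. The fitted difference was 5.96 ± 0.749 on the log2 scale (SE from the F statistic; edgeR, adjusted p = 6.43e-07), and without the B6xC3H sample, or without either B6xPWK sample or the B6xSPRET sample, Cd74 no longer passed the filter. H2-Ab1 had 8, 13, 40, 115 and 15 counts in the same order and 0 to 4 elsewhere. Its difference was 3.49 ± 0.53 on the log2 scale (SE, edgeR, adjusted p = 4.39e-06), with the same dependence on those 4 samples for passing the filter. Both genes passed the filter through the B cell samples, where they are high, so these adjusted p-values are also given without weight.

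Ciita had 32, 17, 15, 39 and 13 counts in B cells, 5 to 25 in lung, 2 to 9 in kidney and 0 to 7 in liver. The highest lung sample, at 65.8 CPM, was above every B cell sample (33.5 to 56.6 CPM), so the groups overlapped. The difference was 1.04 ± 0.404 on the log2 scale (SE; edgeR, adjusted p = 0.0283). It did not pass (edgeR, adjusted p of 0.0527 to 0.0734) when any of 7 samples was left out, namely B6xCAST B cell 1, B6xC3H B cell 1, B6xSPRET kidney 1, B6xSPRET kidney 2, B6xSPRET liver 1, B6xSPRET lung 2 or B6xC3H kidney 1. Dexi, whose exons overlap those of Ciita on the opposite strand, had 354 to 1215 counts in the B cell samples, 46 to 79 in lung, 5 to 13 in kidney and 0 to 4 in liver. Whether reads of Ciita were counted under Dexi was not tested.

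H2-Aa summed to 37 counts in B cells, 2 in liver, 1 in kidney and 0 in lung, and H2-Eb1 to 92 in B cells, 0 in liver, 1 in kidney and 6 in lung. Every B cell sample was above every other sample for both, in CPM. H2-DMa and H2-Oa summed to 7 and 12 counts in B cells and 0 in the other 12 samples, where 3 counts, the limit that a count of 0 allows, would be 5.44 to 10.6 CPM per sample, for counting error in these tables only. Of the genes opposite their exons, Brd2 summed to 278 counts in B cells and 14, 19 and 23 in liver, kidney and lung, and BC051537 to 74 in B cells, 66 of them in 1 sample, and 0, 0 and 1. Without the filter all 7 genes were called higher in B cells (edgeR, adjusted p of 0.02 for H2-DMa and 0.0139 for Ciita at the highest), where 11.1% of 28412 genes were. The B cell means of H2-DMa and H2-Oa were 2.94 and 4.33 CPM. The limit for a count of 0 holds for 1 sample and not for a group of 12, so these means were not compared with it.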

How the data were processed

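Per the study's methods, the authors aligned DNase-seq reads to mm10, combined the libraries of each hybrid in each tissue, and ran hotspot2 on the combined reads with an FDR limit of 5%; the deposited score is −log10 of the FDR, capped at 100. The pooling of the mESC replicates is not given in the sources used here. For RNA-seq the authors prepared stranded total RNA libraries and ran STAR and RSEM, and deposited an expected count and a TPM value per gene; the annotation and strand setting are not given in the sources used here. The members and lists were chosen with earlier results of these data known.

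GENCODE vM21 gave gene positions and symbols (53620 of 53715 identifiers matched). Hotspots overlapping a gene body plus 10 kb were counted, and the bp covered and a hotspot within 500 bp of the 5′ end were recorded. Pooled sets were compared by two-sided permutation of set labels over all genes with any value, exact for B cells and lung, with Benjamini-Hochberg adjustment at 0.05. Expected counts were rounded to whole numbers, filtered with filterByExpr and tested with edgeR 4.0.16. The alternatives included DESeq2 1.42.0 on the same counts, limma 3.58.1 on log2(TPM + 1), stricter hotspot sets, other windows, scaling to set size and leaving out each hybrid or sample. Merged regions were unions of overlapping hotspots of the 20 sets. The named genes were the 7 members, the fixed pathway lists and the 5 genes most alike by Pearson r. Scripts (Python 3.11.15, R 4.3.3) were tested on simulated data. Depth per DNase-seq set was not used, and intervals on single sets were not possible.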

Additional observations from a re-analysis of the deposited data

Results flagged for a closer look

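In 9 of 73 groups of 4 or 5 values the highest or lowest value stood apart from the rest by Dixon's criterion. Its rate of about 1 in 20 by chance holds for independent, normally distributed values. Small whole numbers and counts near 0 do not meet that condition, and many groups share sets. The 9 of 73 was therefore not compared with that rate. In covered bp, B6x129 liver held 4409 bp at H2-Ab1 against 1904 to 2596 bp in the other liver sets, and the B6xCAST B cell set held 20194 bp at Ciita against 5525 to 9559 bp. In numbers of hotspots, the B6xCAST B cell set had 47 at Ciita against 16 to 23, B6xSPRET kidney had 5 at H2-Aa against 4 in each other kidney set, and B6x129 liver had 6 at H2-Oa against 2 to 3. In RNA-seq, Cd74 reached 311 CPM in the B6xC3H B cell sample against 21.2 to 75.9 CPM, and was at 0 in the B6xC3H kidney sample against 1.94 to 2.29 CPM. H2-Aa and H2-Eb1 were each at 1.94 CPM, a single count, in the B6xPWK kidney sample and at 0 in the other kidney samples.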

How the results depend on the processing

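The number of genes called higher in B cells by covered bp was 6 and ran from 5 to 7 over the alternatives. By hotspot number it was 3, rising to 6 with the 75000 highest-scoring hotspots of each set and to 7 per 100000 hotspots of the set. The direction turned for the number at H2-DMa under those settings (differences of 5.93 and 5.24) and at H2-Ab1 in the gene body alone (-0.067, adjusted p of 1 by the exact permutation test). Without passing in either direction, the number also turned at H2-Aa (-0.2) and Cd74 (-0.8) in the gene body, at Cd74 with 2 kb (-0.667) and at an FDR of 1% (-0.067), and with 50 kb at Ciita (-0.6) and H2-DMa (8.13). By hotspot at the start it was 0, and 1 at an FDR of 1% and with the 75000 highest-scoring hotspots. In lung against liver and kidney it was 2, and 1 with the 75000 highest-scoring hotspots, 1 with labels permuted within hybrids, 1 in the gene body, 1 with 2 kb, 0 with 50 kb and 5 per Mb, with 0 to 2 when a hybrid was left out. Regions open in all B cell sets and in no other numbered 3, against 16 with the 75000 highest-scoring hotspots and 3 to 5 without a hybrid (5 without B6xC3H). In RNA-seq, 3 genes were called, 7 without the filter and 0 to 3 without a sample (0 without B6xC3H B cell 1). The cause of these shifts was not tested, except that fewer of the genes passed the filter without any of 4 of the 5 B cell samples. The comparison of hybrids gave 0 calls throughout. Counting single bases was added after the data had been seen. Permuting labels within hybrids, which pairs the tissues of a hybrid, gave 6 genes by covered bp, 3 by number and 0 at the start. Replicate numbers of the RNA-seq samples only name samples, and with hybrid as a term in edgeR, without the sample labelled B6xCAST B cell 1, 2 genes were called. Set size, 1 value per set and the few counts in the RNA-seq tables limit these comparisons.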
